A study of Mus musculus with 16 samples.

Results

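A set of 10 genes that move heme and iron through macrophages was followed across 4 sorted cell populations of untreated C57BL/6 mice, each measured on 4 single-colour Agilent arrays. The genes were chosen with earlier results of these data known, so their counts beside the share of all genes are a description. They were fixed by name as Cd163, Spic, Hmox1, Slc40a1, Slc11a1, Fth1, Ftl1, Tfrc, Blvrb and Slc48a1, and every probe whose gene symbol was one of them was taken from the scanner files. This gave 10 of the 16567 named genes tested and 14 of the 39319 probes. The populations were CCR2+ heart macrophages (CCR2+ Mac), CCR2-negative heart macrophages with much MHC class II on their surface (MHC-IIHi Mac) or little of it (MHC-IIlo Mac), and blood monocytes with high Ly6c (Ly6cHi Mono). Live cells were sorted from minced, digested hearts as CD45+ MerTK+ CD64+ and Ly6c-negative, and the monocytes came from blood. CCR2+ macrophages were also MHC-II-high, MHC-IIHi macrophages were CD11c-low and MHC-IIlo macrophages CD11c-negative. The mice had no treatment, the labels give no genotype beyond the strain and no age, and whether each replicate was a mouse of its own is not stated, so p-values measure only the spread between these samples.

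The transcripts that the gates named were a check of the labels, though not all of them set the groups apart. The log2 level of Ccr2 averaged 0.56 in CCR2+, -3.31 in MHC-IIHi and -3.91 in MHC-IIlo macrophages and 1.06 in monocytes, and H2-Ab1, an MHC class II chain, averaged 5.77, 5.75 and 3.94 in those macrophages and 3.90 in monocytes. Mertk lay between 2.06 and 2.71 in the macrophage groups and was not well above background in monocytes, while Ly6c1, a gene of the Ly6c antigen the macrophages were sorted without, averaged 2.60, 1.27 and 1.39 in them and 5.71 in monocytes. Fcgr1, the gene of CD64, hardly set them apart, at 3.08, 3.01 and 2.89 in the macrophages and 2.76 in monocytes. Itgax, the gene of CD11c, averaged 1.46, -0.40 and -2.37 in the macrophages and -0.52 in monocytes. It was well above background on all 4 arrays of each group, also in the MHC-IIlo macrophages sorted as CD11c-negative. An array had 52.8% to 69.3% of its spots well above background, and correlations between arrays of a group ran from 0.938 to 0.981. Replicate numbers coincided with slides, each holding 1 array per group, and a group occupied one slide position throughout, so that position and population cannot be told apart. The series' value table was not used, because 12 of its 16 columns matched the scanner array of a different group. In RNA from sorted populations, fewer cells of a type and less RNA per cell cannot be told apart.

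Macrophages recover iron from hemoglobin and from whole red blood cells. CD163 takes up hemoglobin bound to haptoglobin, HRG1 (Slc48a1) carries heme out of the phagolysosome, and heme oxygenase 1 (Hmox1) opens the heme ring and releases iron and biliverdin. Biliverdin reductase B (Blvrb) reduces flavins and some forms of biliverdin. The freed iron is stored in ferritin, built of heavy (Fth1) and light (Ftl1) chains, or leaves through ferroportin (Slc40a1), the iron exporter of animal cells. Transferrin receptor (Tfrc) brings in transferrin-bound iron, NRAMP1 (Slc11a1) moves divalent metal out of phagosomes, and SPI-C (Spic) is a transcription factor needed for the red pulp macrophages of the spleen. In heart, resident macrophages are known to clear debris and organelles shed by muscle cells, while red cell clearance has been described mainly in spleen and liver.

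The sequences below are 3 of the 14 probes and what lies upstream of 2 genes that differed together. The Cd163 and Hmox1 probes are those tested, and the Tfrc probe is a second one, the tested Tfrc probe being at transcript position 4288. The 3 probes lie within transcripts of Cd163 (chromosome 6), Hmox1 (chromosome 8) and Tfrc (chromosome 16), at transcript positions 2610, 324 and 1228 in the files, and Hmox1 and Tfrc have further probes whose values are compared below.

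Cd163 probe: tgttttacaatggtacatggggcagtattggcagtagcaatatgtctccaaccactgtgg
Hmox1 probe: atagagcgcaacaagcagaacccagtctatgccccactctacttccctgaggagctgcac
Tfrc probe: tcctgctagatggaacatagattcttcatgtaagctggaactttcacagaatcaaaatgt

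The 250 bases before an annotated start of Cd163 (chr6:124304401-124304650, plus strand) and of Blvrb (chr7:27447728-27447977, plus strand) are from RefSeq, build GRCm38.p6. Capitals mark letters that match the antioxidant response element core TGANNNNGC, here on the other strand and 69 bases before the start.

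Cd163 upstream: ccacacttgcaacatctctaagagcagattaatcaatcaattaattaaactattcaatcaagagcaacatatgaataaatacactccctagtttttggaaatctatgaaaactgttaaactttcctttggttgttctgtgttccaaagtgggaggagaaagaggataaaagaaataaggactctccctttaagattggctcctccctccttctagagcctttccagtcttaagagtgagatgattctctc
Blvrb upstream: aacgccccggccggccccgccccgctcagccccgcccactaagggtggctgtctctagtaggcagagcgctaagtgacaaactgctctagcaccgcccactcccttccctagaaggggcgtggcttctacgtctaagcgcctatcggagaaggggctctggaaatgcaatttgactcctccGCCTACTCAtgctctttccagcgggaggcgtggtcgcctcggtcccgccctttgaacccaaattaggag

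Of the 10 genes, 7 matched a RefSeq promoter entry, all but Hmox1, Slc40a1 and Slc48a1, with 10 windows in all. TGANNNNGC, searched on both strands of the 250 bases before the start, was in 3 of these 10 windows (2 of Blvrb, 1 of Slc11a1) and in 35.2% of all 32851 windows in the table. The MAF recognition element, which is the same core with TGC before it and A after it, was in none of the 10 and in 0.323% of all. GAGGAA, the core bound by PU.1 and SPI-C, searched likewise, was in 1 (Slc11a1) and in 23.3% of all. The iron responsive element loop CAGTGN, searched on the gene strand in the 50 bases after the start, was in none and in 7.08% of all. Fth1, Ftl1, Tfrc and Slc40a1 are known to carry such elements in their messages, and only the first 50 bases were searched.

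Levels are log2 processed signals with each array's 75th percentile at 0, so a level of 1 is 2 times that percentile, and differences between groups (first minus second, n = 4 each) are on the same log2 scale, given ± SE, with limma p-values adjusted over the 21935 genes and unnamed features tested. Levels of different probes are not comparable. The signal of 8 of the 10 genes was well above background on all 16 arrays. The exceptions were Slc40a1, on 7 arrays, and Tfrc, on 9. Slc40a1 met the filter on dim probes only through its MHC-IIHi and MHC-IIlo arrays, and Tfrc through these with 1 CCR2+ array, so a difference from the dim groups was built into their being tested. Without both genes, the counts of calls below would be 2 and 3 for CCR2+ against MHC-IIHi and MHC-IIlo macrophages, and 3, 5 and 4 for CCR2+, MHC-IIHi and MHC-IIlo macrophages against monocytes. With the slide as a block some calls change, and the adjusted p is then given too. The plot of levels by array shows all 4 groups side by side.

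**Figure D1:**
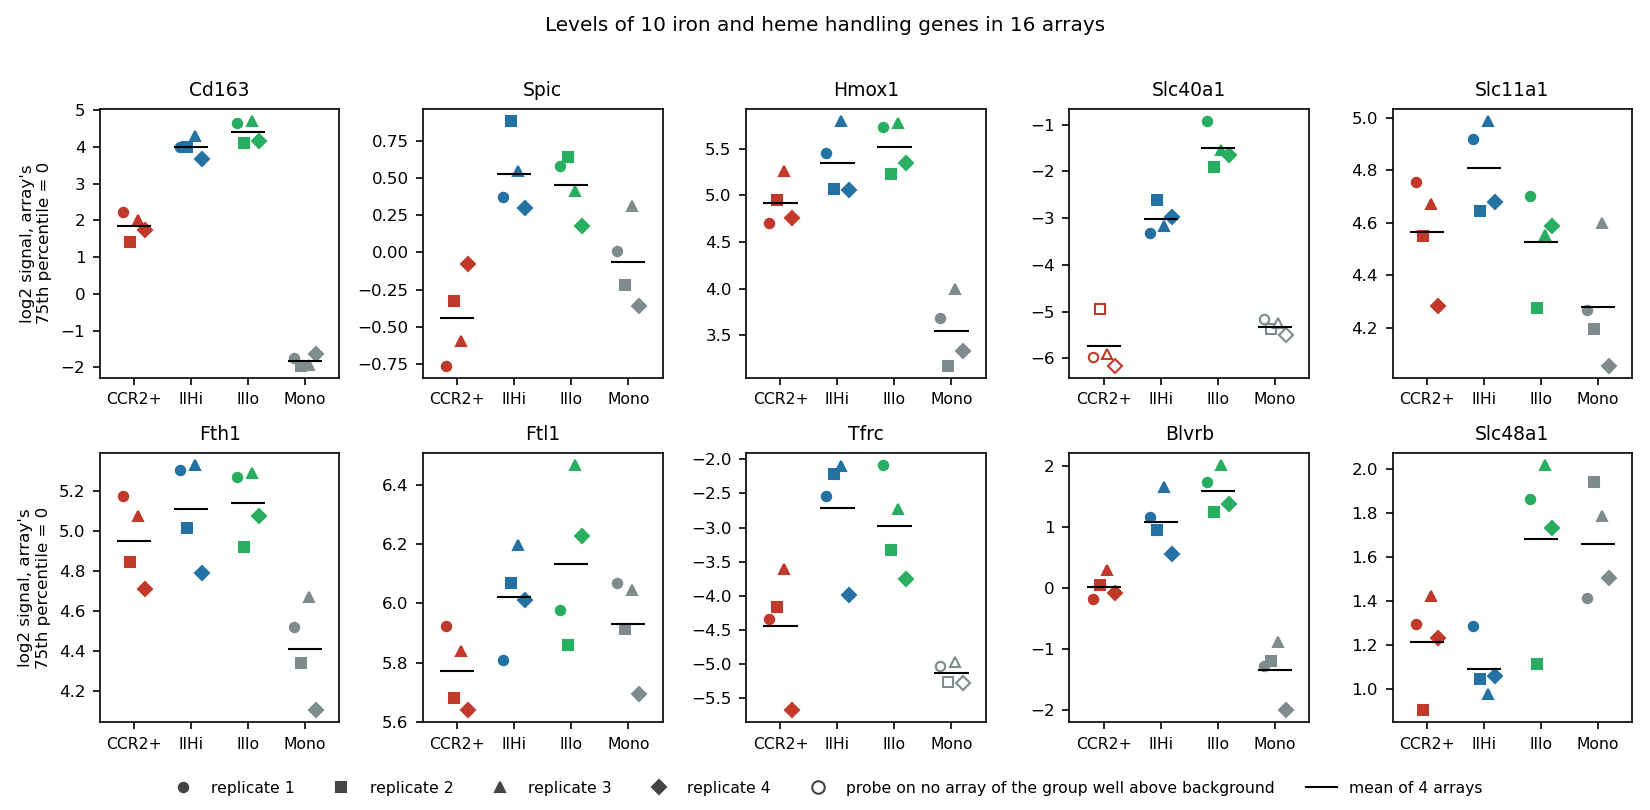
Log2 levels (y axis, each array's 75th percentile at 0) of the 10 genes in CCR2+, MHC-IIHi (IIHi) and MHC-IIlo (IIlo) heart macrophages and Ly6cHi blood monocytes (Mono). Each symbol is 1 array and its shape the replicate, bars are means of 4 arrays, and open symbols mark groups with the probe at background on all 4 arrays; Cd163 lay between 1.40 and 4.70 in the macrophages, above all 4 monocyte arrays.

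Among heart macrophages, the CCR2+ population had the lower signal for hemoglobin uptake (Cd163) and, by narrow calls, for the SPI-C factor. Signal for iron export (Slc40a1) was at background there, in a gene tested only because the other macrophages measured it. Against MHC-IIHi macrophages, 3 of the 10 genes were lower (Cd163, Spic and Slc40a1) and none higher, where 0.611% of all genes were lower and 1.24% differed in either direction. Against MHC-IIlo macrophages, 4 were lower (those 3 and Blvrb) and none higher, where 1.28% of all genes were lower and 2.76% differed. At an unadjusted p under 0.05 in limma none was higher in either comparison, and 5 and 7 were lower, where 9.90% and 11.6% of all genes differed in either direction. The arrays of 4 genes (Cd163, Spic, Slc40a1 and Blvrb) did not overlap in either comparison, all lower in CCR2+ macrophages, as was true of 4.49% of all genes against MHC-IIHi and 4.05% against MHC-IIlo macrophages. With the slide as a block, 5 genes were lower against MHC-IIHi macrophages (1.25% of all genes) and 6 against MHC-IIlo macrophages (2.89%). Both comparisons share the CCR2+ arrays. The median log2 difference of the 10 genes was -0.69 against MHC-IIHi and -0.75 against MHC-IIlo macrophages (-0.65 and -0.75 with Slc40a1 at its bound, described below), where the medians of all genes were -0.02 and -0.04.

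MHC-IIHi and MHC-IIlo macrophages were not separated by any of the 10 genes at an adjusted p under 0.05. Of all genes 0.0684% were, and at an unadjusted p under 0.05 limma gave 2 of the 10, both lower in MHC-IIHi macrophages, and 3.92% of all genes in either direction. Slc40a1 was the nearest (log2 difference -1.51 ± 0.27, adjusted p = 0.0645), and it was the only one of the 10 whose arrays did not overlap, as for 1.24% of all genes in that direction. The median difference of the 10 genes was -0.14, against -0.01 over all genes.

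Against blood monocytes, all 3 macrophage populations had more signal of Cd163, Hmox1 and Blvrb. In CCR2+ macrophages these 3 were higher, where 9.95% of all genes were higher and 21.7% differed. MHC-IIHi macrophages had 7 higher (Cd163, Hmox1, Slc40a1, Slc11a1, Fth1, Tfrc and Blvrb), where 10% of all genes were higher and 21.4% differed. MHC-IIlo macrophages had 6 higher (these without Slc11a1), where 10.1% were higher and 21.2% differed. The mean of the 3 macrophage groups had the same 6 higher, where 12.4% of all genes were higher and 27.3% differed. None of the 10 was lower past the test in these comparisons, which share the monocyte arrays, and at an unadjusted p under 0.05 limma gave 1 lower, Slc48a1 in MHC-IIHi macrophages, where 30.6% of all genes differed in either direction. The arrays did not overlap for 4 genes higher in CCR2+ macrophages (10.7% of all genes), for 7 higher and 1 lower in MHC-IIHi macrophages (10.4% and 12.2%) and for 6 higher in MHC-IIlo macrophages (10.5%). The median difference of the 10 genes was 0.41 in CCR2+, 1.25 in MHC-IIHi and 1.35 in MHC-IIlo macrophages (0.14, 0.56 and 0.62 with dim genes at their bound), against -0.09, -0.05 and -0.05 over all genes. In the mean of the macrophages, the Slc40a1 and Tfrc calls ended with normexp background correction (adjusted p = 0.0673 and 0.606, the highest of ranges that began at 2.6e-07 and 0.000163) and that of Fth1 with median scaling (0.0713, of 2.6e-05 to 0.237).

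**Figure D2:**
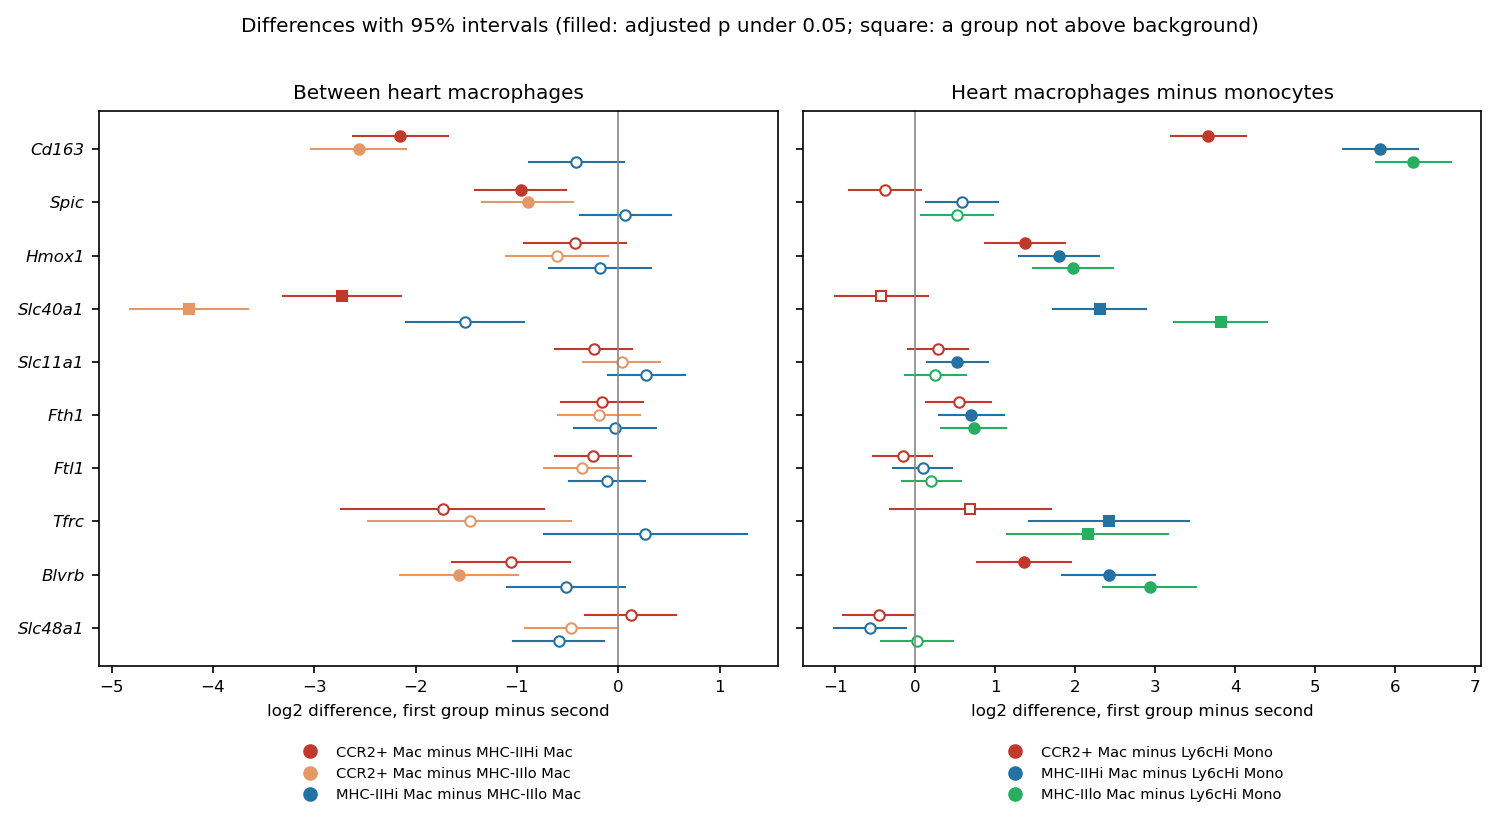
Log2 differences (x axis, first group minus second) of the 10 genes between heart macrophage groups (left) and between each macrophage group and monocytes (right), with 95% intervals from limma. Filled symbols have an adjusted p under 0.05, and squares mark differences where a group had no array with the probe well above background, so that their size is not a measured fold; Cd163 is lowest on the left, at -2.15 and -2.56 for CCR2+ macrophages, apart from the squares of Slc40a1.

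Cd163, the hemoglobin receptor, had log2 levels of 2.21, 1.40, 2.02 and 1.73 in CCR2+ macrophages, 3.99, 4.00, 4.30 and 3.67 in MHC-IIHi macrophages, 4.65, 4.09, 4.70 and 4.17 in MHC-IIlo macrophages, and -1.76, -1.96, -1.95 and -1.63 in monocytes. Every CCR2+ array lay below every array of the other macrophages and above every monocyte array, while the MHC-IIHi and MHC-IIlo arrays overlapped. The level in CCR2+ macrophages was 4.44-fold lower than in MHC-IIHi macrophages (log2 difference -2.15 ± 0.22, adjusted p = 9.38e-05). It was 5.91-fold lower than in MHC-IIlo macrophages (-2.56 ± 0.22, adjusted p = 7.58e-06). Monocytes stood farthest off, and the sign of these differences was the same on all 4 slides. Over monocytes Cd163 was 12.7-fold higher in CCR2+ (adjusted p = 1.28e-08), 56.2-fold in MHC-IIHi (6.49e-11) and 74.8-fold in MHC-IIlo macrophages (2.94e-11). The difference between MHC-IIHi and MHC-IIlo macrophages was -0.41, with a 95% interval of -0.88 to 0.05.

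Spic had levels of -0.76, -0.32, -0.60 and -0.08 in CCR2+, 0.37, 0.88, 0.55 and 0.30 in MHC-IIHi, and 0.58, 0.64, 0.41 and 0.18 in MHC-IIlo macrophages, and 0.01, -0.22, 0.31 and -0.36 in monocytes. The CCR2+ arrays were all below those of the other macrophages, and the monocyte arrays overlapped with every group. CCR2+ macrophages were lower by a log2 difference of -0.96 ± 0.21 against MHC-IIHi (adjusted p = 0.036) and of -0.89 ± 0.21 against MHC-IIlo macrophages (adjusted p = 0.0318). Both calls were narrow. They ended with median scaling (adjusted p = 0.101 and 0.0943), with a fit of only the compared groups (0.111 and 0.0996), and without any 1 of CCR2+ replicates 1 to 3, any MHC-IIHi array for the first, or MHC-IIlo replicates 1 to 3 for the second. All 4 fits of 2 slides also ended both, and array weights in limma ended the second (adjusted p = 0.0664). Over all 29 alternatives the adjusted p ran from 0.00947 to 1 for the first and from 0.0227 to 0.759 for the second. Against monocytes the difference was -0.37 ± 0.21 in CCR2+ (adjusted p = 0.245), 0.59 ± 0.21 in MHC-IIHi (0.0613, and 0.0412 with the slide as a block) and 0.52 ± 0.21 in MHC-IIlo macrophages (0.103).

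Of the 3 genes of uptake and transfer into the cytosol (Tfrc, Slc11a1 and Slc48a1), Tfrc lay near background. Its tested probe, present in 10 spots, had levels of -4.34, -4.17, -3.61 and -5.66 in CCR2+ macrophages, where 1 of 4 arrays was well above background. MHC-IIHi macrophages had -2.54, -2.22, -2.10 and -3.98, MHC-IIlo macrophages had -2.09, -3.34, -2.73 and -3.76, and no monocyte array was well above background. CCR2+ macrophages lay below MHC-IIHi (-1.73 ± 0.47) and MHC-IIlo macrophages (-1.47 ± 0.47) on all 4 slides, although the arrays overlapped. The adjusted p was 0.112 and 0.149 without and 0.013 and 0.0168 with the slide as a block, and with normexp background correction the differences were -0.73 and -0.56. Against monocytes Tfrc was at least 1.35-fold higher in MHC-IIHi (adjusted p = 0.00145) and at least 1.12-fold higher in MHC-IIlo macrophages (0.00336). A fold of this kind sets the dim group at each array's lowest signal that still counted as above background, or at its measured signal where that was higher. A probe can exceed that lowest signal without counting as above background, so the fold is a nominal minimum. The p is that of the limma fit without this bound, and the filter built part of the difference into the test. Both calls ended with normexp background correction (adjusted p = 0.337 and 0.522), the highest over 29 alternatives, of which the lowest were 9.24e-05 and 0.000188. In CCR2+ macrophages no fold over monocytes is given (adjusted p = 0.349).

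The second Tfrc probe, printed above, was not well above background on any CCR2+ or monocyte array, and was so on 2 MHC-IIHi arrays and all 4 MHC-IIlo arrays, where its levels were -1.60, -2.85, -2.77 and -3.15. Since it met the filter only through those arrays, no test of it against CCR2+ macrophages or monocytes is given. The third Tfrc probe was well above background on 1 of 16 arrays and was not tested.

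Slc11a1 and Slc48a1 were well above background on every array, and their group means spanned less than 1 log2 unit. Slc11a1 had levels of 4.76, 4.55, 4.67 and 4.28 in CCR2+, 4.92, 4.65, 4.99 and 4.68 in MHC-IIHi, and 4.70, 4.27, 4.55 and 4.59 in MHC-IIlo macrophages, and 4.27, 4.19, 4.60 and 4.06 in monocytes. Only the MHC-IIHi arrays stood clear of the monocyte arrays. C57BL/6 mice carry a loss-of-function change in the Slc11a1 protein, which a transcript level does not show. The difference of MHC-IIHi macrophages from monocytes was 0.53 ± 0.18 (adjusted p = 0.0463). It was lost with median scaling (0.314), with no filter on dim probes (0.0547), with only the compared groups (0.125) and in 12 of 16 fits that left out 1 array, and the adjusted p over 29 alternatives ran from 0.000436 to 0.531. In the mean of the 3 macrophage groups the difference was 0.35 ± 0.15 (0.0876, and 0.0158 with the slide as a block).

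Slc48a1, the heme transporter, had levels of 1.30, 0.91, 1.42 and 1.23 in CCR2+, 1.29, 1.05, 0.98 and 1.06 in MHC-IIHi, and 1.86, 1.11, 2.02 and 1.73 in MHC-IIlo macrophages, and 1.41, 1.94, 1.79 and 1.50 in monocytes. Monocytes lay beside MHC-IIlo macrophages, and both averaged above the other groups (difference of MHC-IIlo macrophages 0.02 ± 0.21, adjusted p = 0.97). MHC-IIHi macrophages were below monocytes on every array (-0.57 ± 0.21, adjusted p = 0.07, and 0.0406 with the slide as a block). MHC-IIHi macrophages also had -0.59 ± 0.21 against MHC-IIlo macrophages (adjusted p = 0.926).

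Hmox1 had levels of 4.71, 4.95, 5.26 and 4.76 in CCR2+, 5.45, 5.07, 5.80 and 5.06 in MHC-IIHi, and 5.73, 5.23, 5.78 and 5.35 in MHC-IIlo macrophages, and 3.69, 3.18, 4.00 and 3.34 in monocytes. All 12 macrophage arrays were above all 4 monocyte arrays, and the 3 macrophage groups overlapped. Over monocytes the enzyme's transcript was higher by 1.37 ± 0.24 in CCR2+ (adjusted p = 0.000613), 1.79 ± 0.24 in MHC-IIHi (4.2e-05) and 1.97 ± 0.24 in MHC-IIlo macrophages (1.55e-05). Between CCR2+ and MHC-IIHi macrophages the difference was -0.43 ± 0.24 (adjusted p = 0.624), and between CCR2+ and MHC-IIlo macrophages -0.60 ± 0.24 (0.287, and 0.023 with the slide as a block). The second Hmox1 probe, at transcript position 1290, put the CCR2+ arrays at 2.90, 3.05, 3.63 and 2.99 and all 4 MHC-IIlo arrays at 3.80 or above, with no overlap. On that probe CCR2+ macrophages were lower, with a log2 difference of -0.85 ± 0.19 (adjusted p = 0.0236 in the fit over all probes), so the 2 probes fell on different sides of the threshold.

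Blvrb had levels of -0.17, 0.06, 0.29 and -0.08 in CCR2+, 1.17, 0.95, 1.66 and 0.55 in MHC-IIHi, and 1.74, 1.25, 2.01 and 1.38 in MHC-IIlo macrophages, and -1.27, -1.19, -0.89 and -1.99 in monocytes. The CCR2+ arrays formed a step between the monocytes below and the other macrophages above, with no overlap on either side. CCR2+ macrophages were lower than MHC-IIlo macrophages (log2 difference -1.57 ± 0.27, adjusted p = 0.00399), and the difference from MHC-IIHi macrophages was -1.06 ± 0.27 (0.0887, and 0.00621 with the slide as a block). Over monocytes Blvrb was 2.56-fold higher in CCR2+ (adjusted p = 0.0021), 5.34-fold in MHC-IIHi (9.33e-06) and 7.62-fold in MHC-IIlo macrophages (1.06e-06). MHC-IIHi macrophages had -0.51 ± 0.27 against MHC-IIlo macrophages (adjusted p = 1), lower on all 4 slides.

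Both ferritin chains were well above background on all arrays of the 4 populations. Fth1 had levels of 5.17, 4.85, 5.08 and 4.71 in CCR2+, 5.30, 5.01, 5.33 and 4.79 in MHC-IIHi, and 5.27, 4.92, 5.29 and 5.08 in MHC-IIlo macrophages, and 4.52, 4.34, 4.67 and 4.11 in monocytes. Every macrophage array was above every monocyte array, by small amounts. The heavy chain was higher by 0.70 ± 0.19 in MHC-IIHi (adjusted p = 0.0143) and 0.73 ± 0.19 in MHC-IIlo macrophages (0.011), and the difference in CCR2+ macrophages was 0.54 ± 0.19 (0.0533, and 0.00201 with the slide as a block). Median scaling ended both calls (adjusted p = 0.156 and 0.122, of ranges over 29 alternatives of 0.000231 to 0.381 and 0.000239 to 0.414), as did a fit of only the compared groups for MHC-IIHi macrophages (0.0617). Among macrophages the largest Fth1 difference was -0.19, CCR2+ minus MHC-IIlo, with a 95% interval of -0.59 to 0.22.

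Ftl1, the light chain, averaged 5.77 ± 0.13 in CCR2+, 6.02 ± 0.16 in MHC-IIHi and 6.13 ± 0.27 in MHC-IIlo macrophages and 5.93 ± 0.17 in monocytes (SD, n = 4 each). No pair of groups differed past the test on this probe, and the 95% interval of CCR2+ minus MHC-IIlo macrophages was -0.73 to 0.01. Its second probe, at transcript position 462, had MHC-IIlo macrophages above monocytes by 0.59 ± 0.17 (adjusted p = 0.0179 in the fit over all probes), where the first probe gave 0.20 ± 0.18. The RefSeq gene table names 3 ferritin light chain and 5 heavy chain pseudogenes, and a probe's signal could include their transcripts. The levels on each probe of Hmox1, Ftl1 and Tfrc are plotted side by side.

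**Figure D3:**
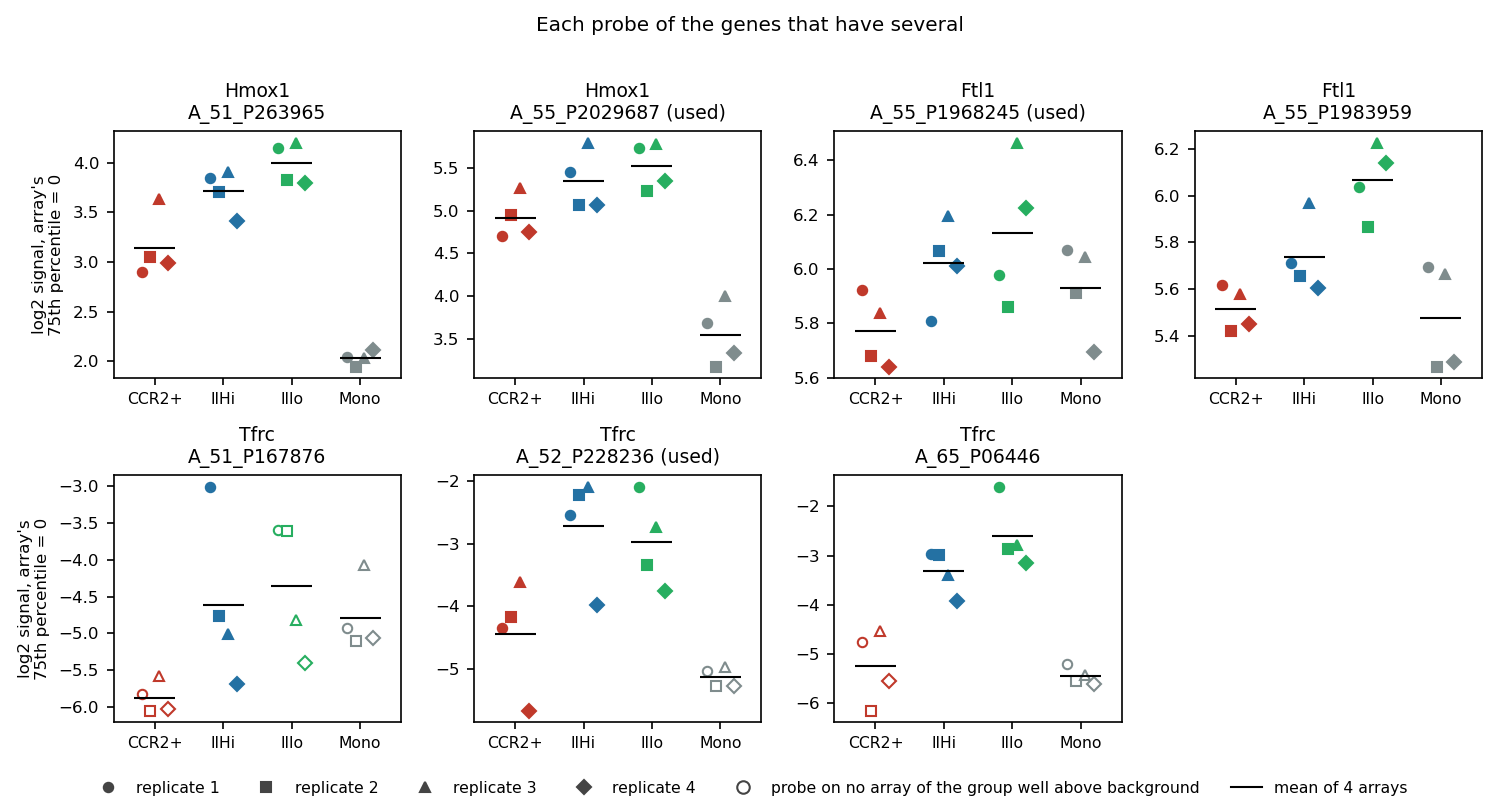
Log2 levels (y axis, each array's 75th percentile at 0) on each probe of Hmox1, Ftl1 and Tfrc in the 3 heart macrophage groups and monocytes. Each symbol is 1 array, bars are means, open symbols mark groups with no array well above background, and the probe whose values the fits used is named as used; MHC-IIlo macrophages lie above CCR2+ macrophages on average on both Hmox1 and both Ftl1 probes.

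Slc40a1, the exporter, divided the populations by whether it was measured at all. It was not well above background on any CCR2+ or monocyte array. MHC-IIHi macrophages had levels of -3.32, -2.60, -3.16 and -2.97, with 3 of 4 arrays well above background, and MHC-IIlo macrophages had -0.92, -1.91, -1.55 and -1.64, with all 4. Each MHC-IIlo array was above each MHC-IIHi array, and that difference is the one given above (-1.51 ± 0.27, adjusted p = 0.0645). It passed with the slide as a block (0.0414), with quantile normalization (0.0239) and without CCR2+ replicate 2 (0.0313), and over 28 alternatives the adjusted p ran from 0.0239 to 1. CCR2+ macrophages were at least 1.84-fold lower than MHC-IIHi (adjusted p = 8.67e-05) and at least 5.25-fold lower than MHC-IIlo macrophages (8.27e-07). Over monocytes Slc40a1 was at least 1.09-fold higher in MHC-IIHi (adjusted p = 1.44e-05) and at least 3.11-fold higher in MHC-IIlo macrophages (5.56e-08). These limma p-values are no support for the direction, because the filter admitted Slc40a1 only through the groups where it was measured. With normexp background correction both MHC-IIHi calls ended (adjusted p = 0.158 against CCR2+ macrophages and 0.12 over monocytes, of ranges from 1e-05 to 0.566 and from 7.03e-07 to 0.12), while both MHC-IIlo calls held. CCR2+ macrophages and monocytes give no fold, since both were dim.

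A total of 8 lists of further genes of iron and heme biology, 62 genes with 50 tested, set these values in their pathways. Between CCR2+ and MHC-IIHi macrophages 1 of the 50 was higher and 2 were lower, where 0.629% and 0.611% of all genes were. The counts against MHC-IIlo macrophages were the same, where 1.48% and 1.28% of all genes were higher and lower. In both, they were Hp, Slc46a1 and Cp. Haptoglobin (Hp), the plasma partner of CD163, had levels averaging 0.43 in CCR2+, -1.80 in MHC-IIHi and -1.73 in MHC-IIlo macrophages and 5.63 in monocytes. It was higher in CCR2+ than in MHC-IIHi (2.22 ± 0.45, adjusted p = 0.0219) and MHC-IIlo macrophages (2.15 ± 0.45, 0.015), and lower in the mean of the macrophages than in monocytes (-6.66 ± 0.37, 2e-09). Ceruloplasmin (Cp), the ferroxidase that works with ferroportin, averaged -0.51 in CCR2+, 1.50 in MHC-IIHi and 1.63 in MHC-IIlo macrophages. It was lower in CCR2+ than in MHC-IIHi (-2.02 ± 0.21, adjusted p = 9.38e-05) and MHC-IIlo macrophages (-2.14 ± 0.21, 2.13e-05). In monocytes Cp was not well above background on any array, and CCR2+, MHC-IIHi and MHC-IIlo macrophages were at least 6.18-fold, 25.0-fold and 27.3-fold higher (adjusted p = 2.12e-09, 2.87e-11 and 1.93e-11 in limma). Cp met the filter only through macrophage arrays, so its direction against monocytes was built into its being tested. Slc46a1, a folate transporter that also carries heme, was lower in CCR2+ than in MHC-IIHi (-1.20 ± 0.22, adjusted p = 0.012) and MHC-IIlo macrophages (-1.63 ± 0.22, 0.000478), and higher in the mean of the macrophages than in monocytes (1.69 ± 0.18, 3.42e-06). Between MHC-IIHi and MHC-IIlo macrophages none of the 50 passed in limma, and none had an unadjusted p under 0.05.

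Against monocytes, 7 of the 50 were higher and 9 lower in the mean of the 3 macrophage groups, shares near those of all genes (12.4% and 14.9%). The 7 include Cp and Abcg2, which met the filter only through macrophage arrays. Of 7 iron uptake genes tested, 2 were higher, transferrin (Trf, 0.66 ± 0.18, adjusted p = 0.0123) and the iron transporter Slc11a2 (0.72 ± 0.21, 0.0162), and the median of the list was 0.13. Of 8 genes of hemoglobin and heme binding and transport, 2 were higher (Slc46a1 and Abcg2) and 3 lower (median -0.27). The heme exporter Abcg2, dim in monocytes, was at least 1.45-fold higher in CCR2+ and 1.49-fold in MHC-IIHi macrophages (adjusted p = 0.000634 and 0.000477 in limma). In MHC-IIlo macrophages 2 of 4 arrays were well above background, and no fold is given. These p-values are no support for the direction of Abcg2, which the filter built into its being tested. Of 8 partners of heme degradation, biliverdin reductase A (Blvra) was higher (0.65 ± 0.18, adjusted p = 0.0118) and Bach1, the heme-sensing repressor of Hmox1, was lower (-0.98 ± 0.16, 0.000275), with a median of -0.08. Of 7 storage and export partners, Cp was higher and the iron chaperone Pcbp2 lower (-0.54 ± 0.15, adjusted p = 0.0114), with a median of 0.19. Neither of the 2 iron regulatory genes tested (Aco1 and Fbxl5) passed in any of the 7 comparisons.

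Of 6 heme synthesis genes, Urod (-0.67 ± 0.17, adjusted p = 0.00924) and Cpox (-0.58 ± 0.20, 0.0441) were lower in the macrophage mean, with a median of -0.10. Of 7 mitochondrial iron genes, the iron-sulfur scaffold Iscu was lower (-0.77 ± 0.15, adjusted p = 0.00111), with a median of -0.15. Of 5 NRF2 targets outside iron handling, sulfiredoxin (Srxn1) was higher (1.82 ± 0.24, adjusted p = 2.6e-05) and glutathione reductase (Gsr) lower (-4.06 ± 0.19, 3.72e-10), with a median of -0.10. The median over all genes in this comparison was -0.07.

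**Figure D4:**
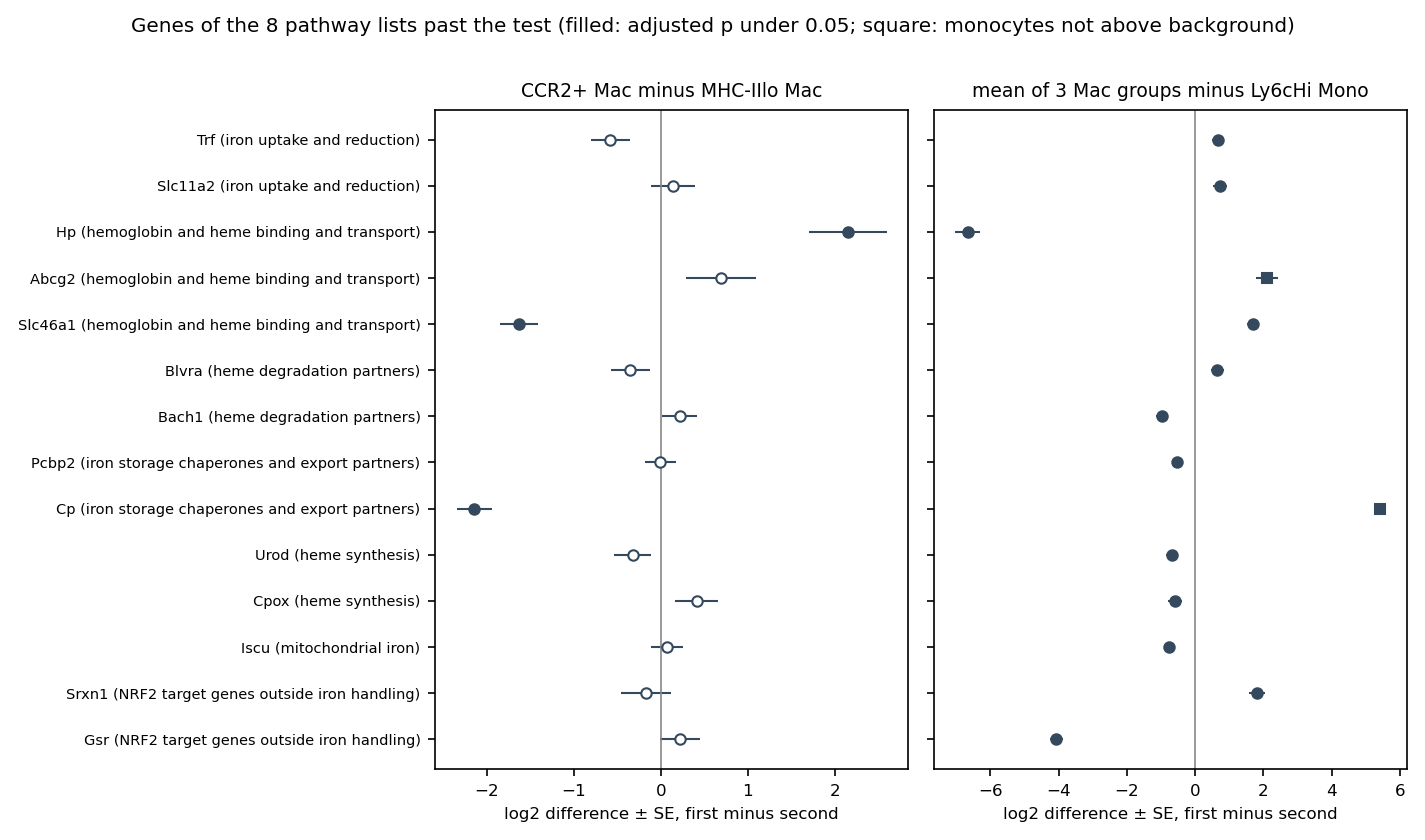
Log2 differences ± SE (x axis, first group minus second) of the pathway genes that passed the test in a comparison between macrophages or were among the 3 of their list with the largest differences past it against monocytes. The left panel is CCR2+ minus MHC-IIlo macrophages and the right the mean of 3 macrophage groups minus monocytes, filled symbols have an adjusted p under 0.05 and squares mark genes not above background in monocytes; Hp at 2.15 is the gene farthest to the right on the left panel, and Cp at -2.14 the one farthest to the left.

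Some genes listed as markers of other cells moved with some of these groups, and their part in the results was not tested. The summed level of 6 erythroid genes, as multiples of the array's 75th percentile, was 6.37 to 11.1 in CCR2+, 10.7 to 17.1 in MHC-IIHi and 7.77 to 18.8 in MHC-IIlo macrophages and 27.7 to 58.6 in monocytes, with 5, 5, 6 and 4 of the genes well above background on any array of these groups. The alpha globin Hba-a1 averaged -1.87, -0.49 and -1.19 in those macrophages and 4.38 in monocytes. In the macrophages the erythroid sum was mostly Ermap, which averaged 3.05, 3.72 and 3.73 there and 3.86 in monocytes. The 5 platelet genes summed to 13.8 to 18.2 in CCR2+, 27.2 to 39.2 in MHC-IIHi and 42.7 to 54.9 in MHC-IIlo macrophages and 2.58 to 5.36 in monocytes, in the macrophages mostly through Pf4, which averaged 3.82, 4.94 and 5.46 there and -0.55 in monocytes. The rest of the list did not follow Pf4. Ppbp averaged -3.84, -3.90 and -3.90 in the macrophages and -1.81 in monocytes, and Gp9 -3.65, -3.45 and -5.44 against -1.96. Itga2b and Gp1bb averaged between -0.14 and 0.28 in every group. The 7 cardiomyocyte genes summed to 15.9 to 25.1, 19.6 to 29.0 and 17.5 to 28.4 in the macrophages and 1.85 to 2.41 in monocytes, with Ryr2 not well above background on any array and Actc1, Tnnt2 and Mb on no monocyte array. The 5 fibroblast genes summed to 2.32 to 7.97 in CCR2+, 4.13 to 7.91 in MHC-IIHi and 5.74 to 8.20 in MHC-IIlo macrophages and 0.641 to 0.986 in monocytes, with Pdgfra well above background on no array and Dcn averaging 1.24, 2.06 and 2.32 in the macrophages but not above background in monocytes. The 6 endothelial genes summed to 3.46 to 6.15, 3.50 to 6.07 and 3.37 to 5.22 in the macrophages and 1.70 to 2.68 in monocytes, with Cdh5 well above background on no array. Egfl7 averaged 1.076, 1.035 and 0.768 in the macrophages and -2.139 in monocytes, and Kdr, Tie1 and Emcn also averaged higher in the macrophages. Flt1 went the other way, at -1.997, -2.045 and -1.805 against -1.203. Sums of 8 neutrophil genes, 30.4 to 49.4 in the macrophages and 43.0 to 47.8 in monocytes, overlapped, as did those of 4 B cell genes (1.95 to 6.83 and 3.33 to 5.69) and 5 T and NK cell genes (up to 1.33 and up to 1.75). The neutrophil sums were mostly Csf3r, with group means of 5.15 to 5.45. S100a8 averaged -5.51, -5.83 and -5.97 in the macrophages and -2.75 in monocytes, and S100a9 -3.77, -3.07 and -3.23 against -0.51. Mmp9 in MHC-IIHi and MHC-IIlo macrophages (-1.85 and -2.03 against -5.16) and Ly6g in CCR2+ macrophages (-1.65 against -2.87) went the other way. The 3 monocyte genes (Ly6c1, Ccr2 and Plac8) summed to 5.73 to 20.3 in CCR2+, 2.37 to 3.20 in MHC-IIHi and 2.72 to 3.37 in MHC-IIlo macrophages and 112 to 163 in monocytes, so these transcripts were higher in the macrophages where Cd163, Spic, Slc40a1 and Blvrb were lower. For Ccr2 this was fixed by the gate of that group. Ly6c1 averaged 2.60, 1.27 and 1.39 in the macrophages, and Plac8 0.87, -2.18 and -2.29. The 6 macrophage genes summed to 106 to 139 in CCR2+, 125 to 176 in MHC-IIHi and 145 to 176 in MHC-IIlo macrophages and 94.3 to 125 in monocytes, where Mertk and Mrc1 were not well above background.

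Across the 16 arrays the levels of Cd163, Hmox1 and Blvrb followed each other, with Pearson r of 0.94 for Cd163 and Hmox1, 0.95 for Cd163 and Blvrb and 0.95 for Hmox1 and Blvrb. These are descriptions over arrays in 4 groups that share slides and scaling. Slc40a1 was well above background on 7 of the 16 arrays and Tfrc on 9, so correlations with these genes rest partly on background signal. Slc48a1 was at -0.24 with Cd163 and -0.07 with Blvrb. Among 16566 other named genes the highest r with Cd163 were those of Chp2 (0.996), C4b (0.994) and Cp (0.991), with Hmox1 those of Atf5 (0.985), Snx5 (0.984) and Cd151 (0.983), and with Blvrb those of Tspan4 (0.980), Gprc5c (0.980) and Ang (0.978). For Slc40a1 they were Rgs7bp (0.960), Pxdc1 (0.931) and Colec12 (0.929), for Fth1 Rgs10 (0.964), Eid1 (0.963) and Mat2a (0.963), and for Tfrc Stard8 (0.927), Clec10a (0.921) and Mcfd2 (0.911). The remaining 4 had no such value above that of Slc11a1, which had Trp53i13 (0.892), Itm2c (0.892) and Aif1 (0.889), Spic had Arhgef5 (0.869), Tslp (0.866) and Fam43a (0.862), Slc48a1 had Ppib (0.849), Lamtor2 (0.832) and E130218I03Rik (0.819), and Ftl1 had 4930592A05Rik (0.828), Smim13 (0.805) and COX3 (0.797).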

How the data were processed

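RNA of 16 samples, 4 in each of 4 groups, was hybridised in 1 colour, with 1 ng of RNA per sample labelled for Cy5 per the labels' protocols. The authors' scanner files came from Agilent Feature Extraction 11.5.1.1, per the submitters' processing notes, and hold for each spot an intensity, from which background was subtracted and trends removed array by array per the file headers. Partek is named there with no version or step. The deposited value table holds log2 values and was used only to check which scanner array each column matched: none of its 16 columns matched its own label (r at most 0.969, against at least 0.995 with the best array), and it was left out.

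Of 44397 spots an array, 1377 were controls. Column headings were shifted against their contents in 15 files and differed in 1, so columns were found from their contents. Spots of a probe were averaged, and 27662 probes well above background on at least 4 of 16 arrays were kept. The log2 signal minus the array's 75th percentile was the level, and the brightest kept probe stood for a gene. Symbols came from RefSeq accessions for 27508 probes and from the files for 3941, and 7980 had none. No spot was saturated. The number of arrays limits the precision.

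All 16 arrays entered a fit of 4 group means with limma 3.58.1 in R 4.3.3 (lmFit, eBayes, 12 residual degrees of freedom, no block), for 7 comparisons, with two-sided p-values adjusted by Benjamini-Hochberg over 21935 features and a threshold of 0.05. Deviations of same-numbered arrays from their group means correlated at 0.139 to 0.639 for every pair of groups, and the numbers coincide with slides. Arrays of a slide thus shared variation that the main fit, without a block, left out, and the main counts and p-values carry that limit. The labels do not say whether the samples themselves were paired. The scripts were tested on simulated data. For the fit these data had independent noise and no slide effect, so they do not bear on leaving out the block. The 10 genes, the pathway lists and the markers were chosen with earlier results of these data known. Of the pathway and marker lists, 3 genes are not reported here and enter no list count, median or sum. All 10 genes are named, with every pathway gene past the threshold between macrophages, the 3 largest of each list against monocytes, the sort genes, and the 3 genes most correlated with each of the 10. Alternatives were normexp background correction (offset 50), quantile and median scaling, filters on dim probes, the mean of probes, a slide block, array weights, fits of only the groups compared, pairs of slides, and leaving out each array.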

Additional observations from a re-analysis of the deposited data

How the results depend on the processing

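Of 29 differences of the 10 genes past the threshold, none reversed in 830 alternative fits, which kept 738 calls and lost 92. Of the 29, 26 kept their call in every fit that left out 1 array, 17 in every alternative other than 2-slide fits, and 10 in all. For the 41 differences not past the threshold, 35 of 1183 alternative fits passed it. The slide as a block (replicate block) gave 5 genes for CCR2+ minus MHC-IIHi macrophages and 1 for MHC-IIHi minus MHC-IIlo macrophages, and changed no call of the 10 genes other than those given beside their results; it was not run for the pathway lists. Array weights gave 5 for the first, and quantile normalization 1 for the second and 5 for CCR2+ macrophages minus monocytes. Leaving out 1 array gave 0 to 1 for MHC-IIHi minus MHC-IIlo macrophages. Fits of slides 1 and 2, 3 and 4, 1 and 3, and 2 and 4 gave 0, 0, 0 and 1 for CCR2+ minus MHC-IIHi macrophages and 0, 1, 2 and 2 for CCR2+ minus MHC-IIlo macrophages. The first 3 of these pairs gave 1 each for CCR2+ macrophages minus monocytes, and the first 2 gave 3 and 4 for MHC-IIHi macrophages minus monocytes. The pairs 1 and 3, and 2 and 4, were chosen after seeing the data. These fits hold fewer samples, and for the other settings the cause was not tested.

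Differences that changed sign under some alternative were not past the threshold under any, except that quantile normalization put Ftl1 past it against monocytes in MHC-IIlo macrophages (0.45, adjusted p = 0.0457, with up to 0.957 elsewhere) and in the macrophage mean (0.37, adjusted p = 0.0349, with up to 0.979 elsewhere). Slc48a1 was -0.0658 for CCR2+ minus MHC-IIHi on slides 1 and 2, and for MHC-IIlo macrophages minus monocytes -0.0576 with median scaling, -0.0611 with array weights, -0.19 on slides 1 and 2, -0.30 on slides 2 and 4 and -0.0926 to 0.21 without single arrays. Slc11a1, CCR2+ minus MHC-IIlo, was -0.0145 with normexp, -0.0078 with array weights, -0.0927 on slides 3 and 4, -0.0141 on slides 2 and 4 and -0.0491 to 0.13 without single arrays. For MHC-IIHi minus MHC-IIlo, Fth1 was 0.0079 with quantile normalization, 0.0672 on slides 1 and 2, 0.0371 on slides 1 and 3 and -0.10 to 0.0782 without single arrays. There Tfrc was -0.23 as the mean of its probes, Ftl1 0.0200 on slides 1 and 2 and -0.20 to 0.000368 without single arrays, and Spic -0.0359 on slides 1 and 3 and -0.0487 to 0.15 without single arrays. Against monocytes CCR2+ macrophages had -0.22 for Tfrc with normexp, 0.14 for Slc40a1 and 0.31 for Ftl1 with quantile normalization, and 0.0893 for Spic on slides 2 and 4. Ftl1 against monocytes was -0.0108 with median scaling, -0.0517 on slides 1 and 2 and -0.0538 on slides 1 and 3 in MHC-IIHi, -0.0717 on slides 1 and 2 in MHC-IIlo, and -0.0324, -0.10, and -0.0217 under the same 3 settings in the mean of the macrophages, with -0.0340 to 0.0914 without single arrays. That mean had -0.0678 for Spic on slides 1 and 3.

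Genes called over all 21935 features moved by over 1.5 times in some fits. From 272, 606 and 15 between macrophages (CCR2+ minus MHC-IIHi, CCR2+ minus MHC-IIlo, MHC-IIHi minus MHC-IIlo), median scaling gave 173, 377 and 4, the slide block 550, 1251 and 78, array weights 936, 1202 and 89, only the groups compared 181, 329 and 0, and 2 slides 1 to 34, 8 to 306 and 0 to 2. Leaving out 1 array gave 153 to 340 for the first and 0 to 18 for the last. Against monocytes the slide block gave 7400 for CCR2+ (from 4749) and 7056 for MHC-IIlo macrophages (from 4659), no filter gave 8470 for CCR2+ macrophages and 9622 for the mean (from 5992), and 2 slides as few as 566, 830, 875 and 1334. Normexp moved the median of all genes by -0.154 to -0.166 against monocytes and median scaling by -0.102 for MHC-IIHi macrophages, and other scalings moved it by under 0.1. A filter of at least 8 arrays drops Slc40a1, and a fit of only the groups compared has no value for the mean of the macrophages. Slc40a1 and Tfrc lay near background, which limits them to bounds.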
